A study of Homo sapiens with 24 samples.

Results

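The comparison described here is the difference between 2 responses: the change that FGF23 brought about in 24 h in HEK293 cells carrying Klotho, minus the change that the same treatment brought about in HEK293 cells without it. It was computed per gene from 12 of the 24 libraries of the study, those labelled 24 h. HEK293 is an immortalised human embryonic kidney line, called WT in the labels, and Kl is the same line stably transfected with Klotho. At 24 h there were 4 groups of 3 libraries: WT controls, WT cells given recombinant human FGF23 at 10 nM, Kl controls, and Kl cells given FGF23 at 10 nM. All cells were grown in MEM with 10% heat-inactivated fetal bovine serum and antibiotics, so serum was present in every group. Whether the Kl line is 1 clone and which promoter drives its Klotho are not given in the sources used here, so a difference between the lines cannot be told apart from one due to the transfection or to the choice of cells. Nothing in the labels tells whether the libraries of a group came from separate cultures, so every p-value is relative to the spread among these libraries, which may be technical. The other 12 libraries, of 1 h at 0.5 nM, are used below only beside the 24 h values.

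FGF23 is a hormone released by bone cells that lowers phosphate uptake and vitamin D activation in the kidney. It binds FGF receptors poorly by itself, and Klotho, a membrane protein made in the kidney tubule, forms with the receptor the site that FGF23 recognises. The activated receptor signals through the adaptor FRS2, RAS and the kinase ERK, which turns on transcription factors of the EGR, FOS and ETS families together with Sprouty proteins and phosphatases that dampen the signal. A gene is called dependent on Klotho below when its log2 fold change under FGF23 differed between Kl and WT cells at an adjusted p under 0.05, and the difference of the 2 log2 fold changes, Kl minus WT, is called its Klotho dependence. A positive value means only that the log2 fold change was higher in Kl than in WT cells, whichever way each line moved.

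Total counts of the 12 libraries ran from 16207000 to 29116838, and mitochondrial genes took 5.24 to 6.31% of them. The first principal component, with 38.9% of the variance, separated the 2 lines, and the second, with 13.8%, separated treated from control Kl libraries but not treated from control WT libraries. Library 1 of the treated Kl group stood further from its replicates than any other library did, with 5.95 and 5.69 times the variance that counting alone gives, against at most 3 for the other pairs. Of 10 genes on a fixed list for kidney progenitors and HEK293, which includes the neurofilament genes NEFL and NEFM, 8 were high enough to test. PAX8 and CDH6 were not among the 8. Of the proximal tubule markers 6 of 10 could be tested, and of the fibroblast markers 4 of 8. All 8 distal nephron markers stayed under 20 counts in every library. Of the 8 blood markers 7 stayed under 20 counts as well. The summed level of 8 epithelial markers was lower in Kl than in WT cells, with 866 to 894 CPM (counts scaled to the total of the library) in WT controls, 881 to 942 in treated WT, 531 to 559 in Kl controls and 623 to 685 in treated Kl cells, and its part in the results was not tested.

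The transfected gene itself was read first. KL had 0, 2 and 0 counts in the WT controls and 2, 5 and 14 in the treated WT libraries, against 16072 to 17944 in the Kl controls and 32844 to 52909 in the treated Kl libraries. Every Kl library therefore lay far above every WT library, as labelled. Scaled to the library, KL stood at 1021, 1011 and 1009 CPM in Kl controls and at 1814, 1879 and 1924 CPM after FGF23, so the transcript rose by 0.89 on the log2 scale within the Kl line (edgeR adjusted p = 1.62e-15), and the 2 groups did not overlap. Transcripts of the transfected copy and of the cells' own gene were not told apart. The fitted difference between the lines for KL was negative and called, but the call was lost in 5 of 22 other settings, among them the omission of library 1 or 3 of the WT controls or library 3 of treated WT cells. It rests on 14 or fewer counts in each WT library and is no measure of a response.

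In all, 2515 of 17173 genes tested, or 14.6%, depended on Klotho by edgeR's quasi-likelihood test with Benjamini-Hochberg adjustment. Of these, 1353 were higher (7.88%) and 1162 lower (6.77%). The response itself reached 3779 genes (22%) in Kl cells, 1984 of which rose (11.6%) and 1795 fell (10.5%). Scaled by library size in place of TMM, 1760 rose and 2043 fell, so which direction held more genes turned with the scaling. In WT cells it reached 32 genes (0.186%), 2 of which rose (0.0116%), RPL23A and HINT1, and 30 fell (0.175%), while 1308 had an unadjusted p under 0.05. The WT count ran from 1 to 96 with single libraries left out, 96 without library 1 of treated Kl cells and 1 without library 3 of either WT group. Most differences were small: the median size among the called genes was 0.34 on the log2 scale, 1881 of them (74.8%) were under 0.5, and 185 were over 1, of which 134 were higher and 51 lower. Among the 1353 higher genes the median effect was 0.29 in Kl and -0.05 in WT cells, and among the 1162 lower genes it was -0.27 in Kl and 0.07 in WT cells. Fitted together with the 1 h libraries, 673 genes were called, 665 of them among the 2515. Leaving out single libraries gave 1952 to 3451 calls, the highest number without library 1 of the treated Kl group.

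**Figure D1:**
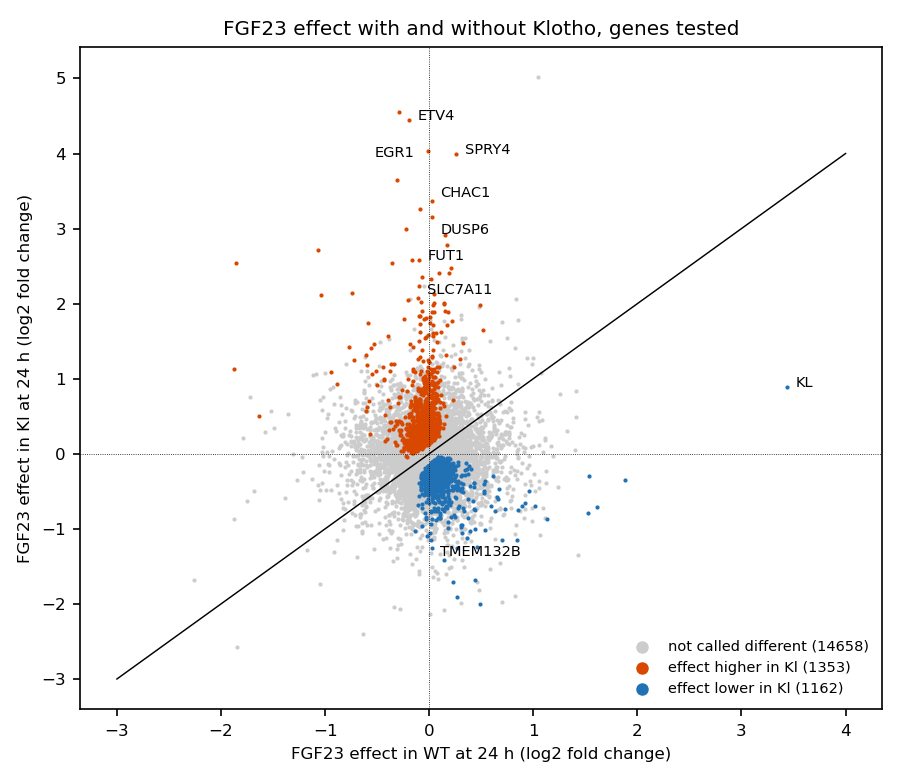
Each point is 1 of 17173 genes, with the FGF23 effect in WT cells on the horizontal axis and in Kl cells on the vertical axis, both as log2 fold changes at 24 h. Orange and blue mark the 1353 genes with a higher and the 1162 with a lower effect in Kl cells, which spread along the vertical axis and stay near 0 on the horizontal one; the diagonal marks equal effects, and the lone point at the right is KL, which rests on 14 or fewer counts per WT library.

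Among called genes with a mean of at least 1 CPM, the 4 highest values belonged to ETV4, EGR1, SPRY4 and ETV5, all known targets of ERK. ETV4, an ETS factor that ERK signalling induces (chr17:43527844-43579620, GRCh38, minus strand), stood at 1.28, 1.61 and 1.91 CPM in WT controls, at 1.16, 1.10 and 1.97 in treated WT cells, at 2.79, 3.52 and 3.31 in Kl controls and at 76.5, 68.7 and 65.2 in treated Kl cells. The treated Kl libraries alone were high, and treated and control WT libraries overlapped. Its Klotho dependence was 4.64 ± 0.27 (SE; 95% interval 4.09 to 5.19; adjusted p = 2.39e-18). The related factor ETV5 went from 5.29, 7.86 and 6.86 CPM in Kl controls to 58.3, 65.5 and 66.5 after FGF23, while all 6 WT libraries lay between 3.56 and 4.89, a difference of 3.35 ± 0.18. ETV1, the third member of this ETS subfamily, started higher in Kl than in WT controls, at 14.6 to 15.4 against 6.80 to 7.28 CPM, and rose to 43.2, 49.8 and 45.0, a difference of 1.51 ± 0.13.

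EGR1, the immediate-early zinc finger factor read as a marker of FGF23 activity (chr5:138465490-138469315, plus strand), had the smallest adjusted p of all genes tested (9.88e-29). Its level was 10.9, 10.9 and 12.4 CPM in WT controls and 12.2, 10.6 and 11.2 in treated WT cells. Kl controls held less, 6.2, 5.09 and 5.57 CPM, and treated Kl cells 92.7, 92.4 and 93.3. The Kl groups did not overlap and the WT groups did, and the dependence was 4.05 ± 0.12. Its RefSeq promoter window (GRCh38.p14, chr5:138465229-138465528, plus strand) is shown because the serum response element, to which the ERK-activated ETS partners of SRF bind, stands in it. Capitals mark both CArG boxes, the core of that element, at bases -105 to -96 and -83 to -74 from the start.
EGR1: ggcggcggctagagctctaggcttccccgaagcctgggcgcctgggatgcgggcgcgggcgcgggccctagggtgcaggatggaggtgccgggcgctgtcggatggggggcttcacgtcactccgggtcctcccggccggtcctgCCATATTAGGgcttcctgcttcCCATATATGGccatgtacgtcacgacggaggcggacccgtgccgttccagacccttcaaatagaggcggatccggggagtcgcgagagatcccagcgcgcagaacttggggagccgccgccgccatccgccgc
A CArG box on either strand was found in 1.1% of 17610 windows of genes tested. It stood in 3 of 23 immediate-early genes and 0 of 22 feedback genes, both described below, that had a window.

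Of 33 immediate-early genes tested, 23 were higher and 3 lower, with a median dependence of 0.63 against -0.01 over all genes tested. IER3, an early survival gene, went from 11.2, 9.31 and 9.25 to 33.1, 36.7 and 35.5 CPM in Kl cells and lay between 10.6 and 14.4 in WT cells, a difference of 1.81 ± 0.14. KLF10, a Krüppel-like factor that is also induced by TGF-beta, and TRIB1, a pseudokinase, were higher by 0.90 ± 0.09 and 0.81 ± 0.11. FOS, the AP-1 subunit, was higher by 1.14 ± 0.31 (adjusted p = 0.0081) at low levels, with 1.88, 0.943 and 1.84 CPM in Kl controls and 4.14, 4.94 and 5.60 after FGF23. In WT cells FOS read 2, 3.06 and 2.06 CPM in controls and 3.89, 3.18 and 3.37 after FGF23, so neither pair of groups overlapped, but the WT change was not called. That call was lost without library 2 of the WT controls (0.88) and in the fit to all 24 libraries. The 3 lower members were BTG2, an antiproliferative gene, at -0.47 ± 0.07, JUN, a partner of FOS, at -0.18 ± 0.06, and MAFK, a small MAF factor, at -0.37 ± 0.12. JUN lost its call under 9 and MAFK under 8 of 22 other settings, each with most single libraries left out. In the fit to all 24 libraries the list gave 13 higher and 1 lower.

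Feedback genes of FGF and ERK signalling, most of which dampen the signal, gave 13 of 26 higher and 1 lower, with a median of 0.37. SPRY4, a Sprouty inhibitor of the RAS pathway (chr5:142310427-142326455, minus strand), read 1.5, 2.19 and 1.91 CPM in WT controls, 1.98, 2.14 and 2.75 in treated WT cells, 3.59, 2.45 and 3.06 in Kl controls and 50.8, 48.8 and 46.3 in treated Kl cells. All 3 treated Kl libraries stood apart from the other 9, and the difference was 3.73 ± 0.24. DUSP6, the cytosolic phosphatase that inactivates ERK (chr12:89347232-89353271, minus strand), was at 4.50, 4.97 and 5.14 CPM in Kl controls and 42.6, 45.1 and 42.0 after FGF23, with the 6 WT libraries between 2.41 and 3.43, a difference of 3.12 ± 0.20. SPRED2 and SPRY2, both inhibitors of RAS to ERK signalling, were higher by 1.54 ± 0.09 and 1.26 ± 0.11. For SPRED2 the controls of both lines coincided, at 30.3 to 33.1 and 29.3 to 32.5 CPM, and the treated Kl libraries read 88.4, 91.6 and 95.4. The lower member was FLRT3, a membrane protein that promotes FGF signalling, at -0.82 ± 0.16.

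Of 26 ETS and other late ERK targets, 13 were higher and 1 lower, the chromatin protein gene HMGA1, again with a median of 0.37. EPHA2, an ephrin receptor, rose from 33.5, 32.3 and 36.8 to 67.0, 58.4 and 64.6 CPM in Kl cells, and its dependence was 0.83 ± 0.09. CCND1, the cyclin that carries growth signals into the cell cycle, was higher by 0.60 ± 0.08. Among 20 targets of SRF and YAP, which link the cytoskeleton to transcription, 6 were higher and 1, the tropomyosin gene TPM1, lower (median 0.10). CTGF, a secreted matricellular protein, led them: it read 4.89, 4.91 and 6.80 CPM in Kl controls, 21.8, 16.7 and 19.9 after FGF23 and 7.84 to 10.0 in WT cells, a difference of 1.84 ± 0.18. The cytoskeletal genes VCL and CALD1 differed by 0.40 ± 0.05 and 0.48 ± 0.06. HMGA1 lost its call under 2 and TPM1 under 10 of 22 other settings.

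**Figure D2:**
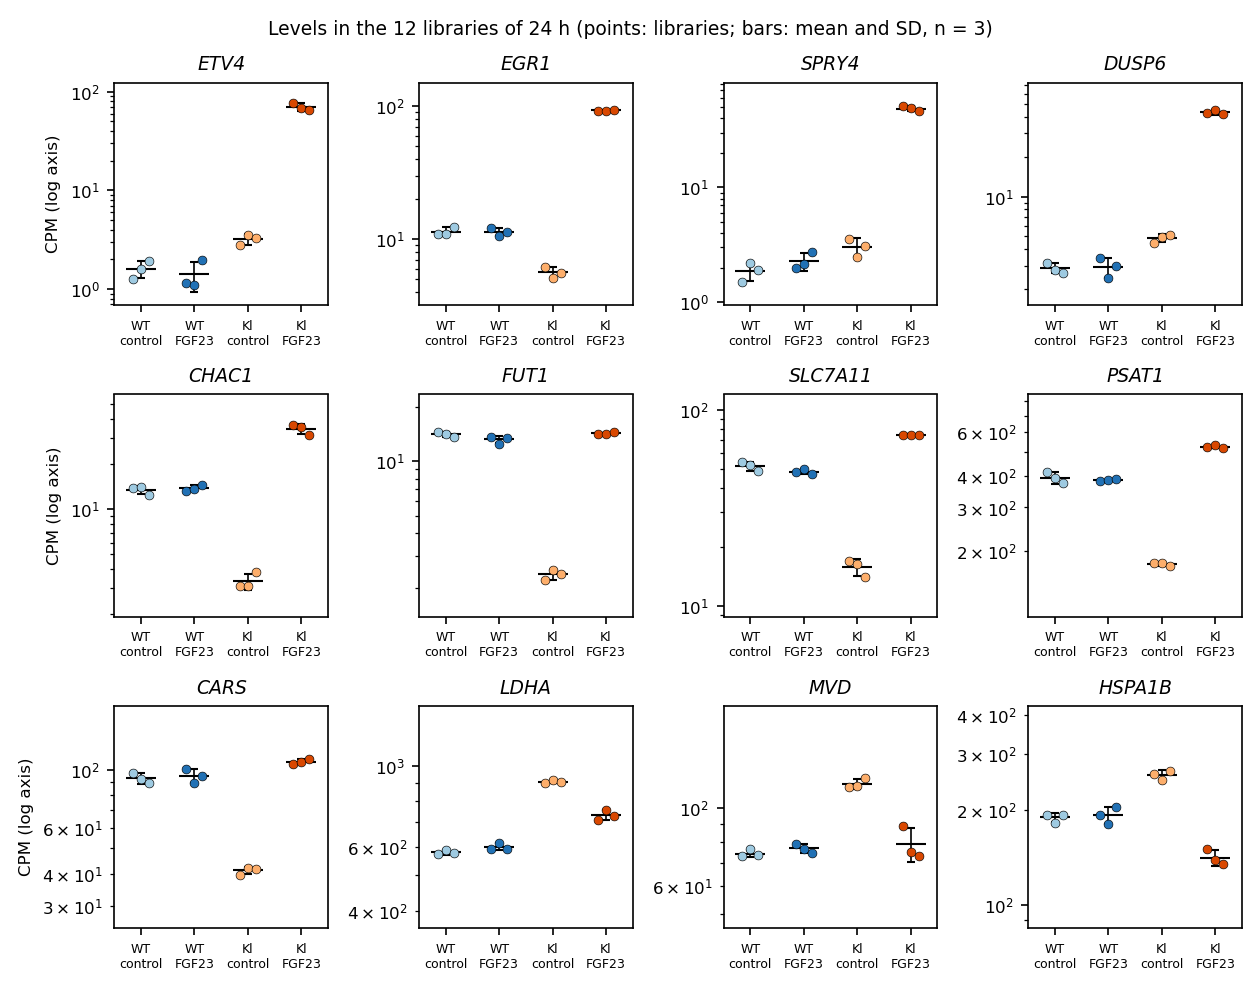
Levels of 12 genes in CPM on a log axis, 1 point per library of 24 h, with the mean and SD of each group of 3. In the top row treated Kl cells stand apart from all others; in the middle row and for CARS the Kl controls lie below WT and FGF23 brings them to or above the WT level; LDHA, MVD and HSPA1B start above WT in Kl controls and are lower after FGF23.

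Within the receptor complex the median dependence was 0.08, and FGFR1 had the highest value. FGFR1, the receptor most often paired with Klotho, was 97.9, 92.4 and 96.8 CPM in Kl controls and 135, 140 and 135 after FGF23, against 86.8 to 96.6 in WT cells, a dependence of 0.59 ± 0.06 (adjusted p = 3.86e-10). FGFR2, FGFR3 and FGFR4 were not called. Their differences were 0.01 (95% interval -0.16 to 0.18), -0.07 (-0.22 to 0.08) and -0.06 (-0.32 to 0.20), and treated and control libraries overlapped in both lines. Per length, by the authors' FPKM in WT controls, FGFR3 was the most abundant of the 4 at 11.8, followed by FGFR1 at 6.72, FGFR2 at 5.95 and FGFR4 at 2.70. In treated Kl cells FGFR1 reached 9.80 FPKM, against 11.8 for FGFR3. Of 13 members tested, FGFR1 and FGFRL1, a receptor that lacks the kinase domain, were called higher and KL was called lower on the counts given above. FGFRL1 (0.28 ± 0.09) was not called without library 1 or 2 of the WT controls, library 1 of treated WT, library 2 of Kl controls, or library 2 of treated Kl cells, nor in the fit to all 24 libraries.

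A second set of genes, those of the ATF4 response to amino acid shortage and endoplasmic reticulum stress, was as much a part of the difference. ATF4 is a bZIP factor made when the kinases of the integrated stress response are active, and it drives genes for amino acid uptake, amino acid synthesis and tRNA charging. Of 20 regulators tested, 16 were higher and none was lower, with a median of 0.81, the highest of the 28 pathway lists. ATF4 itself (chr22:39519695-39522685, plus strand) read 490, 509 and 475 CPM in WT controls, 500, 484 and 514 in treated WT cells, 278, 272 and 271 in Kl controls and 688, 682 and 664 in treated Kl cells. WT groups overlapped, Kl controls were the lowest and treated Kl cells the highest, and the difference was 1.29 ± 0.05 (adjusted p = 7.09e-26). CHAC1, which breaks down glutathione and is a target of ATF4 and CHOP (chr15:40952962-40956519, plus strand), was 13.9, 14.2 and 12.5 CPM in WT controls, 13.3, 13.7 and 14.5 in treated WT cells, 3.07, 3.08 and 3.80 in Kl controls and 36.4, 35.3 and 31.2 in treated Kl cells. It thus went from below to above the WT level, and its dependence was 3.34 ± 0.15. TRIB3, a pseudokinase that restrains ATF4, and STC2, a secreted glycoprotein, were higher by 1.45 ± 0.06 and 1.58 ± 0.07. DDIT3, which encodes CHOP, moved less: 9.05, 8.55 and 7.96 CPM became 14.4, 12 and 11.2, below all WT libraries (15.6 to 18.5), a difference of 0.56 ± 0.15 that was not called in the fit to all 24 libraries.

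Enzymes that make serine, glycine, proline and one-carbon units followed, with 13 of 25 higher and 5 lower (median 0.58). PSAT1, the aminotransferase of serine synthesis (chr9:78297143-78330093, plus strand), read 416, 394 and 374 CPM in WT controls, 384, 385 and 388 in treated WT cells, 180, 180 and 175 in Kl controls and 523, 531 and 518 in treated Kl cells. Its treated Kl libraries lay above all others, and the dependence was 1.59 ± 0.05 (adjusted p = 1.12e-28). Both mitochondrial folate enzymes MTHFD2 and SHMT2 were higher, by 1.26 ± 0.06 and 0.93 ± 0.05, as was the mitochondrial phosphoenolpyruvate carboxykinase PCK2 by 1.59 ± 0.10. The 5 lower members were ALDH18A1, MTHFD1, TYMS, PYCR3 and SHMT1, of which MTHFD1, TYMS and SHMT1 belong to the cytosolic and nuclear side of folate metabolism. Their values lay between -0.34 and -0.20. TYMS, PYCR3 and SHMT1 lost their calls under 9, 10 and 12 of 22 other settings, and the fit to all 24 libraries gave 13 higher and 1 lower. ASNS, the asparagine synthetase, was higher by 1.96 ± 0.26, and so was its pseudogene ASNSP1 (2.76 ± 0.37), which is uncertain because reads may be shared between the near-identical copies.

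Amino acid transporters gave 13 of 23 higher and 1 lower (median 0.67). SLC7A11, the cystine importer (chr4:138164097-138242349, minus strand), was 54.2, 52.2 and 48.7 CPM in WT controls, 48.3, 49.8 and 47.0 in treated WT cells, 17.0, 16.4 and 14.1 in Kl controls and 74.4, 74.8 and 74.8 after FGF23. The Kl groups lay on either side of both WT groups, and the difference was 2.33 ± 0.09. SLC6A9, a glycine transporter, SLC7A5, the large neutral amino acid transporter, and SLC7A1, a cationic one, were higher by 1.93 ± 0.09, 1.71 ± 0.06 and 1.18 ± 0.05. In WT cells SLC7A5, SLC7A1 and SLC38A1, a glutamine transporter, had effects of -0.09, -0.08 and -0.08, none of which was called after adjustment. The lower member was SLC1A3, a glutamate transporter, at -0.47 ± 0.09.

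The 2 kinds of aminoacyl-tRNA synthetase, which load tRNAs, differed in their counts. Of 23 cytosolic synthetases 12 were higher and 1 lower, FARSA (median 0.27), led by CARS at 1.35 ± 0.07, YARS at 1.22 ± 0.05, MARS at 1.09 ± 0.05 and GARS at 1.07 ± 0.06. CARS, for cysteine, went from 39.6, 42.1 and 41.9 to 105, 107 and 110 CPM in Kl cells, with WT controls at 97.1, 92.1 and 89.0 and no called change in WT cells. FARSA lost its call under 13 of 22 other settings. Of 17 mitochondrial synthetases none was higher and 2 were lower, NARS2 at -0.36 ± 0.10 and CARS2 at -0.23 ± 0.07, neither of them called in the fit to all 24 libraries. CARS2 also lost its call without library 3 of the Kl controls or library 2 or 3 of treated Kl cells. The difference between the 2 kinds was not tested.

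Promoter windows of CHAC1, CARS and FUT1, a gene in no list, are shown because each holds the ATF4 and C/EBP composite element, searched as TGATGNAA on both strands. Capitals mark the element, which reads in reverse in CHAC1 and CARS. The windows are RefSeq's on GRCh38.p14, at chr15:40953221-40953520 (plus strand), chr19:48755309-48755608 (minus strand) and chr11:3057374-3057673 (minus strand).
CHAC1: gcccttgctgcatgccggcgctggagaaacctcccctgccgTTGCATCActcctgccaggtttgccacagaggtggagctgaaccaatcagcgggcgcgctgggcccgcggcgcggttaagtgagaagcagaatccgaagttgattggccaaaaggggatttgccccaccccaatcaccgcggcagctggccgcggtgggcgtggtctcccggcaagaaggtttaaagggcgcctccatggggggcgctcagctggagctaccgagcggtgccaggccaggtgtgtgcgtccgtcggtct
FUT1: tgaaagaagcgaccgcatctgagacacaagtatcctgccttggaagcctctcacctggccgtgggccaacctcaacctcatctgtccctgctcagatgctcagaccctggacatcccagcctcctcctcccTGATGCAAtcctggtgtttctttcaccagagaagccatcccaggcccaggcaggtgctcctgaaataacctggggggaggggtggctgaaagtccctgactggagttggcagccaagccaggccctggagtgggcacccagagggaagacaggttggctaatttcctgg
CARS: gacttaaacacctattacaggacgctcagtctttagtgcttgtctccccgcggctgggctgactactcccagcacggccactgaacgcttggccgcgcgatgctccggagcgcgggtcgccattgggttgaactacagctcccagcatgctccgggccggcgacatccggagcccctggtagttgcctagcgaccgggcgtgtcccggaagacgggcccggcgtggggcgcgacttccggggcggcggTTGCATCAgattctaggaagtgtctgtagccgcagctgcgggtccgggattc
FUT1, the fucosyltransferase that makes the H antigen, was among the 12 genes with the highest dependence and was in no list. It read 14.6, 14.1 and 13.6 CPM in WT controls, 13.6, 12.4 and 13.5 in treated WT cells, 2.22, 2.52 and 2.39 in Kl controls and 14.1, 14.1 and 14.4 after FGF23, a difference of 2.68 ± 0.16. Treated Kl cells and WT cells thus held about the same level, and Kl controls alone were low. A window holds 250 bases before and 50 after an annotated start, and 12098 of the genes tested had 1 or more. The element stood in a window of 329 of these genes (2.72%), in 20 of the 90 genes higher by more than 1 that had a window (22.2%) and in 3 of 28 lower by more than 1 (10.7%). Among all called genes it stood in 72 of 1065 higher (6.76%) and 17 of 930 lower genes (1.83%). Of the other named genes, MARS, SLC38A1, SLC7A1, GARS, HERPUD1, AJUBA and SPRED2, all higher, held it as well. So did ALPL (-1.07) and RPS23 (-0.36), both lower, and FGFR2, which was not called. Other motifs were searched the same way. Of the 90 genes, 10% held the ETS motif CCGGAAG and 13.3% the AP-1 motif TGANTCA, against 20.8% and 7% of all with a window. The CRE motif TGACGTCA stood in 6.67% against 3.74%, and the CArG box in 4.44% against 1.52%. All these shares are descriptions, and whether ATF4 or another factor binds at these sites was not measured.

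Of the unfolded protein response genes under ATF6 and XBP1, 9 of 24 were higher and 3 lower, with a median of 0.07. XBP1, the factor activated by the sensor IRE1, and HERPUD1, a degradation factor, were higher by 0.90 ± 0.07 and 0.87 ± 0.09. The 3 lower members were CALR, a chaperone, MANF, a secreted protein of stressed cells, and SEC61B, a subunit of the translocon, at -0.31 to -0.46. The fit to all 24 libraries gave 4 higher and 2 lower. Cytosolic and mitochondrial heat shock genes went the other way, with 2 of 21 higher, BAG3 and HSPA9, and 8 lower and a median of -0.15. HSPA1B, an inducible HSP70 (chr6:31827735-31830255, plus strand), read 193, 183 and 194 CPM in WT controls, 193, 181 and 205 in treated WT cells, 260, 249 and 267 in Kl controls and 150, 139 and 135 in treated Kl cells. It fell from above to below the WT libraries. The dependence of HSPA1B was -0.90 ± 0.06, and its near-identical neighbour HSPA1A gave -1.06 ± 0.13, so that reads may be split between them. HSPA8, the constitutive HSP70, differed by -0.48 ± 0.05. In the fit to all 24 libraries 1 member was lower and none higher, and neither HSPA1B, HSPA1A nor HSPA8 was called. BAG3 and HSPA9 lost their calls under 6 and 12 of 22 other settings.

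**Figure D3:**
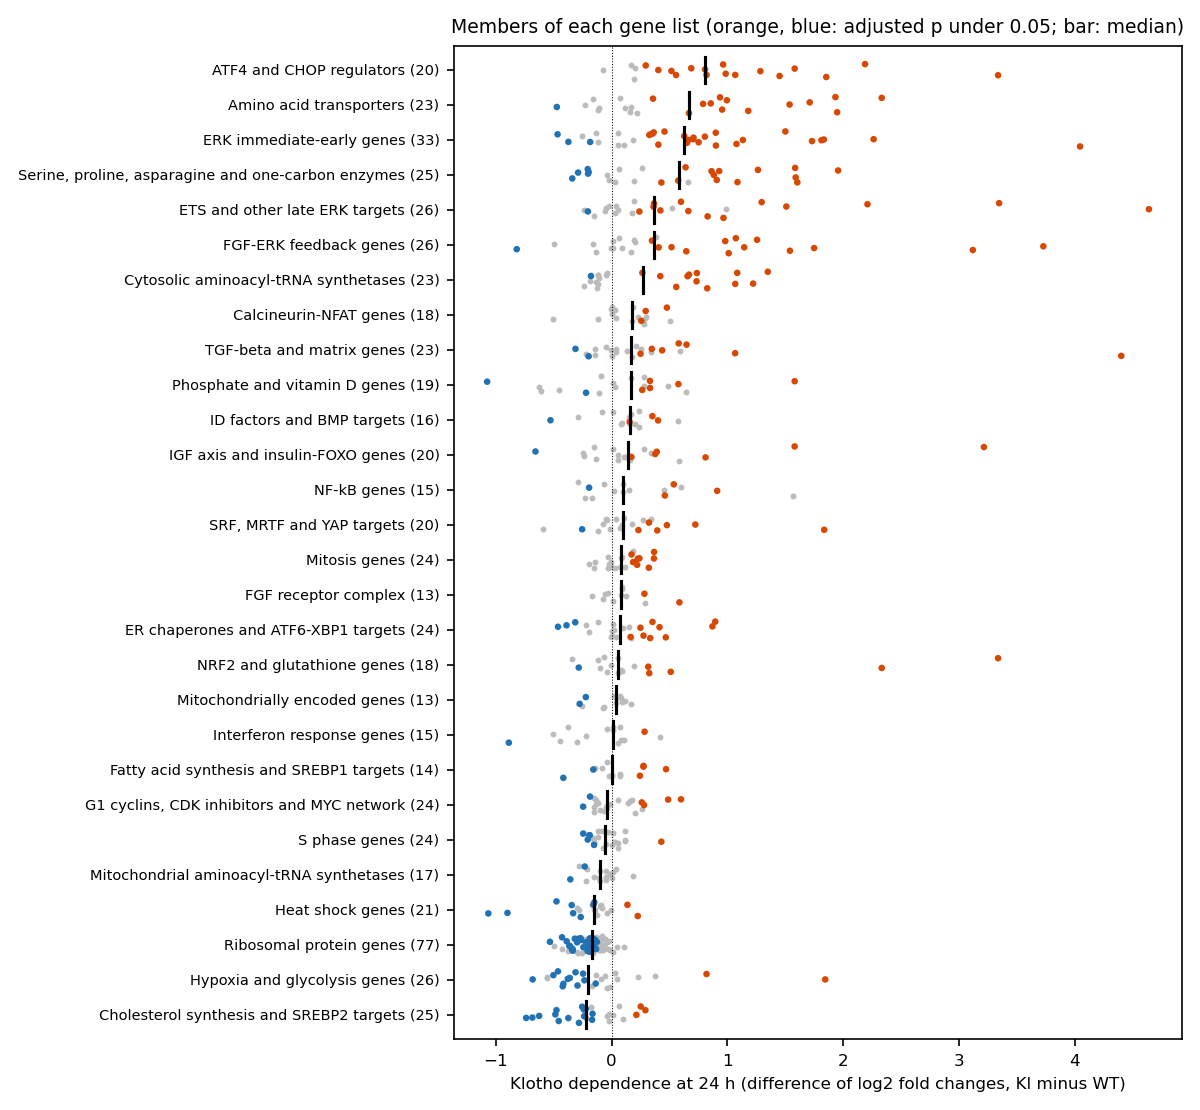
Klotho dependence at 24 h of the tested members of 28 gene lists, as differences of log2 fold changes; orange and blue points passed the test, grey ones did not, KL is not drawn, and the vertical bars are medians. ATF4 regulators, immediate-early genes and amino acid transporters lie furthest to the right, with medians of 0.81, 0.63 and 0.67, and cholesterol, glycolysis and ribosomal genes furthest to the left, at -0.22, -0.20 and -0.17.

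Cholesterol synthesis genes were lower. Of 25 targets of SREBP2, the sterol-sensing factor, 14 were lower and 3 higher, with a median of -0.22. MVD, a decarboxylase of the mevalonate pathway, was 72.9, 76.3 and 73.5 CPM in WT controls, 79.2, 76.6 and 74.7 in treated WT cells, 115, 115 and 122 in Kl controls and 88.8, 75.0 and 73.0 after FGF23. Kl controls stood highest, library 1 of treated Kl cells also lay above every WT library, and the difference was -0.63 ± 0.07 (adjusted p = 2.15e-08). LSS, which closes the sterol ring, went from 388, 360 and 386 to 296, 264 and 270 CPM in Kl cells, with WT libraries at 240 to 258, a difference of -0.48 ± 0.06. Higher members included STARD4, a sterol carrier, at 0.25 ± 0.05, and INSIG1, which holds SREBP back, at 0.21 ± 0.05. In the fit to all 24 libraries 8 were lower and none higher. Fatty acid genes gave 4 of 14 higher, SREBF1, SCD, ME1 and ELOVL6, and 2 lower, ACLY and ACACB, with a median of 0. In the fit to all 24 libraries only SCD of these was called, and ELOVL6 lost its call under 9 of 22 settings in all.

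Glycolysis and hypoxia genes gave 12 of 26 lower and 2 higher, with a median of -0.20, and 4 lower and 2 higher in the fit to all 24 libraries. LDHA, the lactate dehydrogenase of glycolytic cells (chr11:18394388-18408425, plus strand), was 572, 587 and 577 CPM in WT controls, 593, 616 and 593 in treated WT cells, 901, 915 and 903 in Kl controls and 710, 757 and 730 after FGF23. It fell in Kl cells but stayed above every WT library, with a difference of -0.36 ± 0.04. BNIP3, a hypoxia-induced mitophagy gene, was lower by -0.68 ± 0.10. The 2 higher genes were SLC2A3 and VEGFA. SLC2A3, the high-affinity glucose transporter, rose from 50.7, 56.4 and 55.0 to 181, 193 and 189 CPM against 47.5 to 50.2 in WT cells, by 1.85 ± 0.07. VEGFA, the endothelial growth factor, was higher by 0.82 ± 0.06 and is also counted among the ATF4 regulators.

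Ribosomal protein genes shifted little, and those called shared a sign: 32 of 77 were lower and none higher, with a median of -0.17. All 77 ran from -0.53 to 0.11. RPL23A read 606, 606 and 611 CPM in WT controls, 680, 640 and 697 in treated WT cells, 674, 708 and 685 in Kl controls and 594, 596 and 587 after FGF23. It rose in WT cells by 0.15 and fell in Kl cells by 0.22 on the log2 scale, both called, a difference of -0.36 ± 0.05. The rise in WT cells was not called when any 1 control library of either line, library 1 or 3 of treated WT cells or library 3 of treated Kl cells was left out. Nor was it called with the length trend removed, with the replicate number as a block within each line or in the fit to all 24 libraries. Reads of ribosomal protein genes may be shared with their many processed pseudogenes. With a trend with gene length removed from each library 25 members were lower, and in the fit to all 24 libraries 7. Genes of mitosis gave 8 of 24 higher and none lower (median 0.08), 3 of 24 in the fit to all 24 libraries, and genes of S phase 1 higher and 5 lower (median -0.06). The 5 became 0 in that fit, 2 with the length trend removed, and 1 to 6 with single libraries left out, 1 without WT control 1 or treated Kl library 3, and 2 or 3 without WT control 2, treated WT library 1 or 3, Kl control 2 or 3 or treated Kl library 2. MKI67, a marker of cycling cells, read 526, 522 and 541 CPM in WT controls, 466, 486 and 466 in treated WT cells, 406, 425 and 403 in Kl controls and 441, 477 and 500 after FGF23, so it fell in WT and rose in Kl cells, by 0.37 ± 0.05 between them. The fall of MKI67 in WT cells was not called when any 1 WT control or library 1 or 3 of treated WT cells was left out. Nor was that fall called with the length trend removed, with the replicate number as a block within each line or in the fit to all 24 libraries.

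Among 19 phosphate and vitamin D genes tested 5 were higher and 2 lower, ENPP1 and ALPL. The highest value, 1.58, was that of STC2, already counted among the ATF4 regulators. In the fit to all 24 libraries 3 were higher and none lower. SLC20A1, a housekeeping phosphate importer, rose from 145, 153 and 142 to 178, 189 and 189 CPM in Kl cells, with WT libraries at 144 to 157, a difference of 0.33 ± 0.06. SLC20A2, its paralogue, was higher by 0.58 ± 0.11. CYP24A1, the vitamin D hydroxylase, was too low to test, with 0 to 14 counts in each of the 12 libraries. ENPP1, which makes pyrophosphate, lost its call under 12 of 22 other settings. ALPL, an alkaline phosphatase, was barely called at -1.07 ± 0.38 and lost the call under 15 of 22 other settings, among them the omission of library 2 or 3 of the treated WT group, of the Kl controls 1 or 3, of the treated Kl libraries 2 or 3 and of the WT controls 1 or 2. Of 23 TGF-beta and matrix genes 7 were higher and 2 lower, with TGFB1, the ligand, at 1.07 ± 0.07, and SKIL and SMAD7, inhibitors of its pathway, at 0.65 ± 0.08 and 0.44 ± 0.07. TGFBI had the highest value of that list, 4.40 ± 1.05, at a mean of 0.286 CPM, and lost its call without library 2 of the WT controls (3.26). Of 20 genes of the IGF axis 6 were higher, STC2 again among them, and 1 lower. PAPPA2, which cleaves binding proteins that hold IGF, was 1.56 to 2.27 CPM in WT controls, 1.46 to 1.70 in treated WT cells, 0.306 to 0.342 in Kl controls and 2.33 to 2.93 after FGF23, a difference of 3.22 ± 0.42. IGFBP5, such a binding protein, was lower by -0.66 ± 0.06, and IRS1, the insulin receptor substrate, higher by 0.81 ± 0.08.

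The remaining lists moved less. NRF2 and glutathione genes gave 5 of 18 higher and 1 lower, including SLC7A11 and CHAC1, already counted above. Among 16 ID and BMP genes 3 were higher and 1 lower, ID2, an inhibitor of differentiation factors, at -0.53 ± 0.06. NF-kB genes gave 3 higher and 1 lower of 15, calcineurin and NFAT genes 3 higher of 18, G1 cyclins and the MYC network 4 higher and 2 lower of 24, interferon genes 1 each way of 15, and mitochondrially encoded genes 2 lower of 13. The shares called were 13.3% of interferon, 15.4% of mitochondrially encoded and 16.7% of calcineurin and NFAT genes, near the 14.6% of all genes tested. In the fit to all 24 libraries the NF-kB, calcineurin and G1 lists had 1 higher gene each and none lower, and the interferon and mitochondrial lists had none either way. Without library 1 of treated Kl cells the mitochondrial list had 4 higher and 2 lower. The 8 epithelial markers had 2 higher and 1 lower, with KRT18, a simple-epithelium keratin, at 0.65 ± 0.06 and KRT19 at -0.45 ± 0.08, the latter not called in the fit to all 24 libraries. None of the markers of proximal tubule, fibroblast, endothelial or blood cells that could be tested, 6, 4, 2 and 1 genes, was called.

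Genes with the lowest dependence were mostly scarce. Apart from KL, the lowest by the naming rule were TXLNB, PPFIA2, PRR35, GNRH2, SIK1, FREM1, TMEM132B, PET100, HMGN1P36, SERTM1 and IFI27L2, between -1.58 and -1.24. TMEM132B, a membrane protein of unsettled function, was the most abundant: it read 6.73, 6.09 and 5.13 CPM in WT controls, 5.29, 6.58 and 6.35 in treated WT cells, 6.26, 7.67 and 6 in Kl controls and 1.93, 3.13 and 3.10 after FGF23. The treated Kl libraries alone were low, and the difference was -1.28 ± 0.23 (adjusted p = 6.74e-05), called under every alternative run. SIK1, a kinase that restrains CREB coactivators, was lower by -1.42 ± 0.38, a call lost without library 3 of the treated WT group (-1.02). It is uncertain because reads may be split with its near-identical copy SIK1B, which gave -0.94 in the fit to all 24 libraries. The others among these lowest genes averaged a few CPM or less, and TXLNB, PPFIA2, FREM1, PET100, HMGN1P36 and SERTM1 lost their calls when 1 of 3 or more single libraries was left out.

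A difference can also come from WT cells. In 213 of the 2515 genes the WT effect was the larger one in size, against 5450 of all 17173 genes tested. In 380 both lines had effects of opposite sign with an unadjusted p under 0.05 in each. All genes tested held the same 380, so that count describes how the difference is built. FAT1, a giant cadherin, is the clearest gene with a larger WT effect: it fell from 199, 199 and 206 to 162, 177 and 164 CPM in WT cells (-0.27, adjusted p = 0.000586) and rose from 159, 157 and 160 to 172, 179 and 190 in Kl cells (0.18). TRRAP, EP300, UBR4 and ARID1A, large proteins of chromatin regulation and ubiquitination, likewise fell in WT cells and had dependences of 0.33 to 0.42, that of ARID1A not called in the fit to all 24 libraries. All 5 are long genes, and over all genes tested the WT effect had a rank correlation with gene length of -0.187, given as a description across genes, which are not independent replicates. With the length trend removed 2345 genes depended on Klotho, 2020 of them among the 2515, whereas the genes called in WT cells went from 32 to 1, and to 0 in the fit to all 24 libraries. FN1, the matrix protein fibronectin, is the clearest of the opposite pairs, with -0.14 in WT and 0.44 in Kl cells. Of the WT changes named here, that of FAT1 was called in all settings but the fit to all 24 libraries. Those of TRRAP, EP300, UBR4, ARID1A and FN1 were not called when WT control 2 or 3 or treated WT library 1 or 3 was left out, nor with the length trend removed. Those of UBR4 and FN1 were also lost without WT control 1, and those of UBR4, ARID1A and FN1 with the replicate number as a block within each line.

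Starting levels differed between the lines and moved with the result. In controls 6416 genes (37.4%) differed between Kl and WT cells, 3317 higher in Kl (19.3%) and 3099 lower (18%). Scaled by library size these were 2330 and 4052. Over the 134 genes higher by more than 1, the median gap of Kl to WT was -0.79 (log2) in controls and 0.69 after FGF23. The median gap over the 51 genes lower by more than 1 was 0.61 in controls and -0.81 after FGF23. These gaps share libraries with the difference itself, so they describe how it is built and do not test it. The 1 h controls are separate libraries: there the median gap of the 134 genes was -0.36, 97 of them (72.4%) read lower in Kl than in WT cells, against 50.3% of all genes tested, and 37 were called lower and 3 higher, against 1507 lower and 1311 higher of all 17173. For the 51 lower genes the median gap of the 1 h controls was 0.13. Of these genes 31 (60.8%) read higher in Kl cells, against 49.7% of all genes tested, and 8 were called higher and 2 lower. Among single genes the log2 gap of Kl to WT controls was -0.84 at 24 h and -0.47 at 1 h for ATF4, -2.57 and -1.55 for FUT1, -1.71 and -0.50 for SLC7A11, and -1.17 and -0.38 for CARS. The part of the starting level in the response was not tested.

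Dependent genes differed in where they began and ended. For SPRED2, FGFR1, VCL and IRS1 the controls of the lines differed by at most 0.06, and FGF23 took Kl cells above WT cells. ETV4, DUSP6, ETV1 and CCND1 began higher in Kl controls, by 0.99, 0.76, 1.09 and 0.44, and moved further up. The median over the ATF4 regulators, relative to WT controls, was -0.63, -0.66 and -0.67 in the Kl controls and 0.30, 0.26 and 0.21 after FGF23, while treated WT libraries lay at -0.04 to 0.03. Amino acid transporters went from -0.23, -0.27 and -0.22 to 0.25, 0.28 and 0.29. Cholesterol genes ran from 0.38, 0.44 and 0.46 down to 0.26, 0.26 and 0.28, and stayed above WT. Heat shock genes ran from 0.18, 0.15 and 0.15 to 0.01, 0.02 and 0.03, among the WT values of -0.02 to 0.07.

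**Figure D4:**
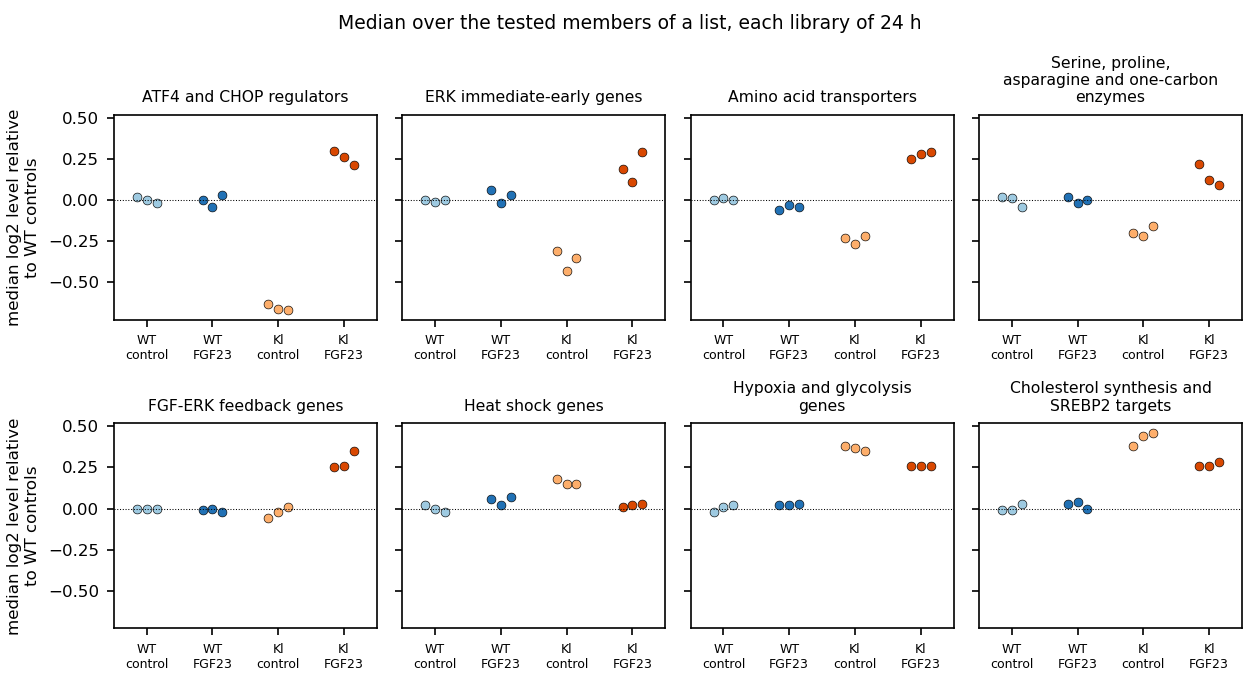
Median over the tested members of 8 lists in each library of 24 h, as log2 level relative to the mean of the WT controls. ATF4 regulators, immediate-early genes, transporters and serine genes start below 0 in Kl controls and end above it after FGF23, feedback genes start at 0, and the last 3 lists start above 0 and come down.

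The same difference of differences at 1 h, under 0.5 nM, called 131 of 17790 genes (0.736%) in the fit to all 24 libraries, 126 of them higher (0.708%) and 5 lower (0.0281%). Dose and time differ together between these comparisons, so their parts cannot be told apart. Of the genes dependent on Klotho at 24 h, 75 were also called at 1 h, which is 2.98% of the 24 h calls and 57.3% of the 1 h calls, and 72 of the 75 had the same sign. The 2515 calls of 24 h used here come from the fit to the 12 libraries of 24 h alone. In the fit to all 24 libraries the 24 h dependence was called for 673 genes, so these shares set unlike fits side by side. The change between the 2 was called for 139 genes (0.781%), 99 with a higher value at 24 h (0.556%) and 40 with a lower one (0.225%). Immediate-early genes were further apart at 1 h: EGR1 had 7.16 at 1 h and 4.05 at 24 h, and FOS 5.69 and 1.14, both changes called (adjusted p = 5.34e-05 for each). Of 33 immediate-early genes 14 were called lower at 24 h than at 1 h, and none higher. Of 26 feedback genes 1 was called lower and none higher. That gene was DUSP1, a nuclear phosphatase of MAP kinases, with 1.21 at 1 h and 0.10 at 24 h (adjusted p = 0.000103). The change was not called for SPRY4 (2.50 and 3.73), DUSP6 (2.32 and 3.12) or SPRY2 (1.22 and 1.26). ETV4 stood at 1.29 at 1 h and 4.64 at 24 h, a called change of 3.35.

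Genes of the ATF4 response were further apart at 24 h. ATF4 had a dependence of 0.23 at 1 h and 1.29 at 24 h, PSAT1 -0.01 and 1.59, SLC7A11 0.20 and 2.33, and CARS 0.03 and 1.35, and each of these changes was called. FUT1, which was in no list, had -0.21 and 2.68, also a called change. Of 20 ATF4 regulators 8 were called higher at 24 h than at 1 h and 1 lower. So were 9 of 25 serine and one-carbon enzymes, 7 of 23 transporters and 10 of 23 cytosolic synthetases, with none lower. CHAC1 had 0.65 and 3.34, but its change between the times was not called. Counts that use the 1 h libraries depended on single treated Kl libraries of 1 h: without library 1, 2 or 3 of them 236, 530 or 159 genes were called at 1 h and 296, 392 or 213 between the times.

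**Figure D5:**
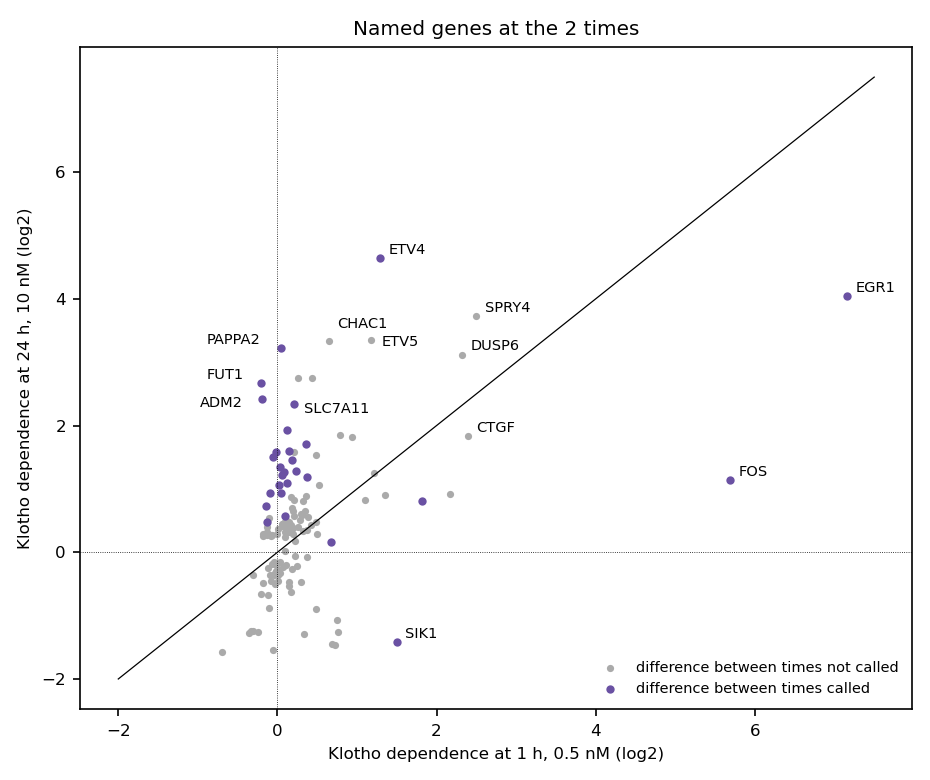
Klotho dependence of the named genes other than KL, at 1 h with 0.5 nM FGF23 on the horizontal axis and at 24 h with 10 nM on the vertical axis, in log2 units; the line marks equal values. Purple points changed between the times by the test: EGR1 and FOS lie below the line, and ETV4, PAPPA2, FUT1, ADM2, SLC7A11 and the group near 0 at 1 h lie above it.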

How the data were processed

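RNA of HEK293 cells without (WT) and with (Kl) stable Klotho was sequenced in 24 libraries, 12 of them of 24 h. Per the file headers, the authors deposited 1 table per FGF23 comparison with raw counts per gene, FPKM values and gene annotation. The aligner, counting program and stranding are not given in the sources used here. The submitters' processing notes name a mouse genome build, but the gene coordinates deposited are human: 34299 of 34305 IDs lie at their GENCODE release 29 positions (GRCh38).

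The tables of both lines at 24 h were joined by gene ID, 26886 genes in both of 31868, and a gene absent from 1 table was taken as 0 (such genes had at most 14 counts). Genes passing filterByExpr were fitted with edgeR 4.0.16 (R 4.3.3; TMM, robust quasi-likelihood, 4 group means, 8 residual degrees of freedom, no block), and p-values were adjusted by Benjamini-Hochberg over 17173 genes. The 1 h contrasts came from 1 fit of all 24 libraries. CPM values are counts over TMM-scaled totals. Standard errors are the log2 fold change over the root of the F statistic. DESeq2 1.42.0 and limma 3.58.1 served as alternatives, and the paths were tested on simulated data. Tables and figures were made in Python 3.11.15 with numpy 2.4.6, pandas 2.3.3 and matplotlib 3.10.9.

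The comparison, its members, gene lists, tests and alternatives were chosen with earlier results of these data known. Named genes are, among those called with a mean of at least 1 CPM, the 12 highest and 12 lowest, up to 5 with a larger WT effect and up to 5 with opposite effects (smallest p), up to 4 called members of each list, and 17 fixed genes, 134 in all, most of which are described. Another 25 genes (BTG2, JUN, MAFK, FLRT3, HMGA1, TPM1, ASNS, ALDH18A1, MTHFD1, PYCR3, SHMT1, SLC1A3, FARSA, CALR, MANF, SEC61B, BAG3, HSPA9, HSPA1A, STARD4, INSIG1, ELOVL6, ACACB, ENPP1 and TGFBI) were named after their values were seen and put through the same alternatives. HINT1, DUSP1 and SIK1B were named likewise. Same-numbered libraries deviated from their group means with correlations of -0.025 to 0.064, so the numbers do not pair them. Some results are not reported here.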

Additional observations from a re-analysis of the deposited data

Results flagged for a closer look

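The effect of FGF23 differed between the lines in 2515 genes at 24 h, and the difference between the lines changed between 1 h and 24 h in 139 genes, by tests of the differences themselves. Dose and time differ together in the latter and cannot be told apart.

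Among named genes, those with a higher difference at 24 h than at 1 h were ETV4 (change of 3.35 on the log2 scale), PAPPA2 (3.17), FUT1 (2.89), ADM2, a secreted adrenomedullin (2.62), SLC7A11 (2.13), SLC6A9 (1.82), PSAT1 (1.6), ETV1 (1.56), PCK2 (1.45), SLC7A5 (1.36), CARS (1.32), TRIB3 (1.27), MTHFD2 (1.18), YARS (1.17), ATF4 (1.05), GARS (1.05), SLC38A1 (1.03), MARS (0.97), SHMT2 (0.88), the LIM protein AJUBA (0.86), SLC7A1 (0.81), CALD1 (0.6) and FN1 (0.48). Those with a lower difference at 24 h were FOS (-4.55), EGR1 (-3.11), SIK1 (-2.92), TRIB1 (-1.01) and ID4 (-0.52). SIK1 had 1.5 at 1 h, not called, and -1.42 at 24 h. Its near-identical copy SIK1B had 1.33 and -0.94, a called change of -2.27, so reads may be split between them.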

How the results depend on the processing

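Of 131 named genes called, 86 kept their direction and call under all alternatives run, none changed sign, and 43 lost their call in the fit to all 24 libraries. That fit called 673 genes for the Klotho dependence at 24 h, 1524 for Kl cells, 0 for WT cells (541 at an unadjusted p under 0.05, against 1308 in the main test) and 4183 between the controls. The WT count of 32 became 60 without a filter, 60 with DESeq2, 62 with limma voom, 10 with the replicate block within line, 1 with the length trend removed, and 1 to 96 with single libraries left out, the 96 without library 1 of treated Kl cells and 1 without library 3 of either WT group. With the replicate number as a block, 2631 genes depended on Klotho at 24 h, or 2360 with the block within line, which gave 3914 between controls. Library size in place of TMM moved the share of higher calls from 53.8 to 50.7% for the dependence, from 52.5 to 46.3% in Kl cells and from 51.7 to 36.5% between controls. Single libraries left out gave 89 to 530 calls at 1 h and 102 to 392 between times. FGFR2 turned to -0.023 with the length trend removed and ranged from -0.04 to 0.081 with single libraries left out, and FGFR4 from -0.105 to 0.01. With 3 libraries a group, values under a few CPM have wide intervals.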

Other observations

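Calls of Klotho dependence at 24 h were counted by transcription factor family, and differences between families were not tested. By the family names in the deposited annotation, 17 of 44 bZIP factors were higher and 4 lower, 9 of 19 ETS factors were higher and none lower, and 13 of 69 bHLH factors were higher and 3 lower. Of 557 C2H2 zinc finger factors 40 were higher and 16 lower, and of 139 homeobox factors 12 and 6. Over all 17173 genes tested, 7.88% were higher and 6.77% lower. The median dependence was 0.24 for ETS, 0.16 for bZIP and 0.02 for C2H2 factors. By biotype, 17.1% of 13917 protein-coding genes were called, against 3.94% of 685 lincRNAs and 2.62% of 991 antisense genes, which are mostly scarcer, and reads of antisense genes cannot be told apart from those of their partners without stranding. CYP24A1, the vitamin D hydroxylase, had 4, 10 and 1 counts in WT controls, 2, 6 and 0 in treated WT cells, 4, 3 and 3 in Kl controls and 13, 14 and 4 in treated Kl cells, too few to test.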
